A study of Homo sapiens with 2 samples.

Results

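The 7 genes described here encode inhibitors of cyclin-dependent kinases: CDKN1A, CDKN1B, CDKN2A, CDKN2B, CDKN2C, CDKN2D and CDKN3, out of 20033 protein-coding genes in RefSeq GRCh38.p14. Peaks were taken from 20 kb before to 20 kb after the RefSeq bounds of each gene, and peaks of the 2 libraries sharing at least 1 bp were merged into regions. This gave 56 regions out of 359137 on the assembled chromosomes, built from 37 peaks of the control library and 50 of the knockdown library. The assay was ATAC-seq, which marks open chromatin by where Tn5 transposase inserts adapters, in U2OS, an established human osteosarcoma cell line. One library came from cells infected with a control hairpin (sh-ctrl) and the other from cells infected with a hairpin (sh-VNGD) against the lncRNA Vanguard, VNGD. Each used 50000 cells, transposed for 30 min at 37 °C. With 1 library per group there is no replicate check, no test between the groups was possible, and every interval covers counting error only. The labels do not say whether infected cells were cloned or pooled, and peaks of open chromatin do not measure how far VNGD was reduced.

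Cyclin-dependent kinases drive the cell cycle, and their inhibitors halt it. The INK4 proteins (p16 from CDKN2A, p15 from CDKN2B, p18 from CDKN2C and p19 from CDKN2D) bind the kinases CDK4 and CDK6. The CIP/KIP proteins (p21 from CDKN1A and p27 from CDKN1B) bind cyclin-kinase complexes more broadly. CDKN3 encodes a phosphatase that removes an activating phosphate from CDK2. CDKN2A has separate promoters for its products, an outer one for ARF, which binds MDM2, and an inner one for p16. U2OS cells are known not to express p16.

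The starts of these genes fell into 2 sets. The RefSeq promoter table holds 10 starts for the 7 genes. A peak of both libraries lay over 7 starts, those of CDKN1A, CDKN1B, CDKN2C (3 starts: outer, middle and inner), CDKN2D and CDKN3. A peak of neither library lay over the other 3, the ARF and p16 starts of CDKN2A and the start of CDKN2B. At these 10 starts each call was the same in sh-ctrl and sh-VNGD. The promoter table holds no start at the outer bound of CDKN1A, where sh-VNGD alone had a peak, of 36 tags. Over all 22077 protein-coding starts the share with a peak in neither library was 39.1%, and that with both was 56.3%.

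The 250 bases before 6 of these starts are shown to compare the promoters without a peak with promoters that had one. They are RefSeq GRCh38.p14 sequences on the strand of each gene, 5′ to 3′, with CG dinucleotides in capitals. The first 3 had no peak in either library and the last 3 had a peak in both.
CDKN2A ARF start, chr9:21995325-21995574, minus strand: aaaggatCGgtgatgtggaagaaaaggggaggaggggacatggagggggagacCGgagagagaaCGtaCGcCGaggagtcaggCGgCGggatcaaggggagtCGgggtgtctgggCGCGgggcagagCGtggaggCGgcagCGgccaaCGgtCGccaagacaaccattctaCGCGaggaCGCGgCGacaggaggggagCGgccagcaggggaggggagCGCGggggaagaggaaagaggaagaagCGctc
CDKN2A p16 start, chr9:21974858-21975107, minus strand: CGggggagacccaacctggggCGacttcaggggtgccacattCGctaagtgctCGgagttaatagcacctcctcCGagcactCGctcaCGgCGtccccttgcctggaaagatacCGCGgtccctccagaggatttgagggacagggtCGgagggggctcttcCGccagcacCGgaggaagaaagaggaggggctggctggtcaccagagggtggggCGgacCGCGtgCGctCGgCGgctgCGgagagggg
CDKN2B start, chr9:22009306-22009555, minus strand: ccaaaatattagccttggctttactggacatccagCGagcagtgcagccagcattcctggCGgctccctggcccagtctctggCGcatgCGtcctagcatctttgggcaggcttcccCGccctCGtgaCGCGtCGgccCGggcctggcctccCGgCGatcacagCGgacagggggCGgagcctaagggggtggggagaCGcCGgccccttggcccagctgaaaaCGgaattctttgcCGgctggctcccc
CDKN1A start, chr6:36678464-36678713, plus strand: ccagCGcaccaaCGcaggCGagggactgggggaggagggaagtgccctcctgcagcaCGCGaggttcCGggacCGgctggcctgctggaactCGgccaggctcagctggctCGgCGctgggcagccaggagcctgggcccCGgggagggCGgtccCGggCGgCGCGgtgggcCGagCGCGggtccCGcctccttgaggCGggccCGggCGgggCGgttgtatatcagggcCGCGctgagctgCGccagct
CDKN2C middle start, chr1:50968456-50968705, plus strand: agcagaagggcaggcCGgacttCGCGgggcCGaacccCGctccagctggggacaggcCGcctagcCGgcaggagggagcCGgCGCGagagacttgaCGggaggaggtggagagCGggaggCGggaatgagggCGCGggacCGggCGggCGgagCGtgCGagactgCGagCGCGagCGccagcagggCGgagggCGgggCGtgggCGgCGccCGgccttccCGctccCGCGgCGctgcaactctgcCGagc
CDKN2C outer start, chr1:50960495-50960744, plus strand: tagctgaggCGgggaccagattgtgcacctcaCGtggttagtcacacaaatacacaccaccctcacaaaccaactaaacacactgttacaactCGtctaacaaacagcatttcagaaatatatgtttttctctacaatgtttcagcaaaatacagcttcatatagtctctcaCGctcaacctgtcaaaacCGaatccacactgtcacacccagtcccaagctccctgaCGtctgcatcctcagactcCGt

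The starts without a peak were not poor in CG. The ARF start had 24 CG dinucleotides, the p16 start 20 and the CDKN2B start 18. The CDKN1A and CDKN1B starts had 27 each, CDKN2D 33, CDKN3 21 and the middle CDKN2C start 35. The outer CDKN2C start had 7 and the inner one 10, and both had a peak in each library. Starts with a peak in both libraries had a median of 22 CG dinucleotides over all protein-coding genes, and starts with a peak in neither had a median of 5. Of 10357 starts with at least 18, a peak was found in neither library at 15.3% and in both at 80.6%. The CDKN2A and CDKN2B starts thus lay in the minority of CG-rich starts, whereas the starts of the other INK4 genes, CDKN2C and CDKN2D, had peaks in both libraries.

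**Figure D1:**
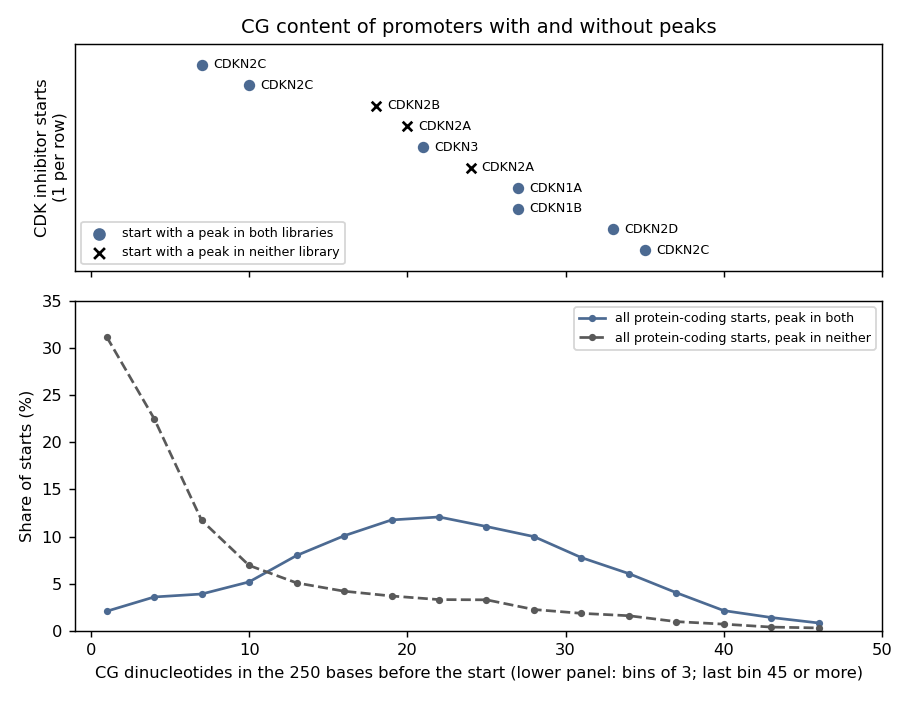
The upper panel places each of the 10 CDK inhibitor starts by its number of CG dinucleotides in the 250 bases before the start (circles, peak in both libraries; crosses, peak in neither), and the lower panel gives the share of all protein-coding starts (%) in bins of 3 CG, separately for starts with a peak in both and in neither. The crosses, at 18, 20 and 24 CG, lie where starts with a peak in both libraries are common.

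Simple motifs were searched in the same 250 bases on both strands. GGGCGG, the GC box bound by SP1, was found in 7 of the 10 member starts and 53.7% of all protein-coding starts. It occurred 4 times before the CDKN1A start, 5 times before the middle CDKN2C start, once before the p16 start and 2 times before the CDKN2B start. CCAAT was found in 4 of 10, before the CDKN1B, CDKN2D and CDKN3 starts and the inner CDKN2C start, against 32.8% of all. CACGTG, the E box, was found in 2 of 10, both of CDKN2C, against 7.35%. TATAAA (9.03% of all starts), TTTCGCGC (0.59%) and TTTGGCGC (0.68%), which are forms of the E2F site, TGACGTCA (2.0%) and TGAGTCA (3.47%) were in none of the 10. GC boxes were thus found before starts with and without peaks.

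The chromosome 9 locus was bare over a long stretch. In sh-ctrl no peak lay between 21964406 and 22084646, a gap of 120 kb that holds all 3 starts. Gaps at least that long held 134 of the 22077 starts, or 0.607%. In sh-VNGD the gap around the ARF and CDKN2B starts ran from 21981068 to 22014616, or 33.5 kb, and gaps of that length held 5.0% of starts. The p16 start lay in a gap of 20.9 kb in sh-VNGD, and gaps of that length held 11.3% of starts. No peak of either library lay within 5 kb of any of the 3 starts, as for 9.03% of all starts and 2.61% of those with at least 18 CG.

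Low peaks divided the gap only in sh-VNGD, the library with more kept tags. In sh-VNGD a peak of 13 tags, at 21980765 to 21981067, lay inside CDKN2A between its 2 starts. Beyond CDKN2B, sh-VNGD had peaks of 12 tags from 22014617 and 16 tags from 22016134. These 3 peaks stood on a local background at the genome average of that library, 1.92 tags, the lowest that the peak caller allows. At that background the lowest pileup called was 7 tags, against 6 tags at the sh-ctrl average of 1.40. Pileups below those limits were not detectable, so the absence of a peak is not a count of 0. The sh-VNGD library kept 1.37 times as many tags (31326715 against 22931980), though its total was lower (48164322 against 51628228). Repeats of a position were 35% of its tags, against 56% in sh-ctrl. The part of kept tags in these low peaks was not tested. The window of CDKN2B had no sh-ctrl peak, and the CDKN2A window was 1.34% covered by peaks in sh-ctrl and 2.18% in sh-VNGD, against medians of 3.84% and 4.77% over all gene windows. The 1 region with peaks of both libraries near these genes lay past the 3′ end of CDKN2A, at 21959127 to 21959910, with 26 sh-ctrl tags and 39 sh-VNGD tags (0.39 on the relative log2 scale defined with the ratios, interval −0.36 to 1.17). Their highest summits differ in place, and the nearest pair of summits gave 1.51 on that scale.

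**Figure D2:**
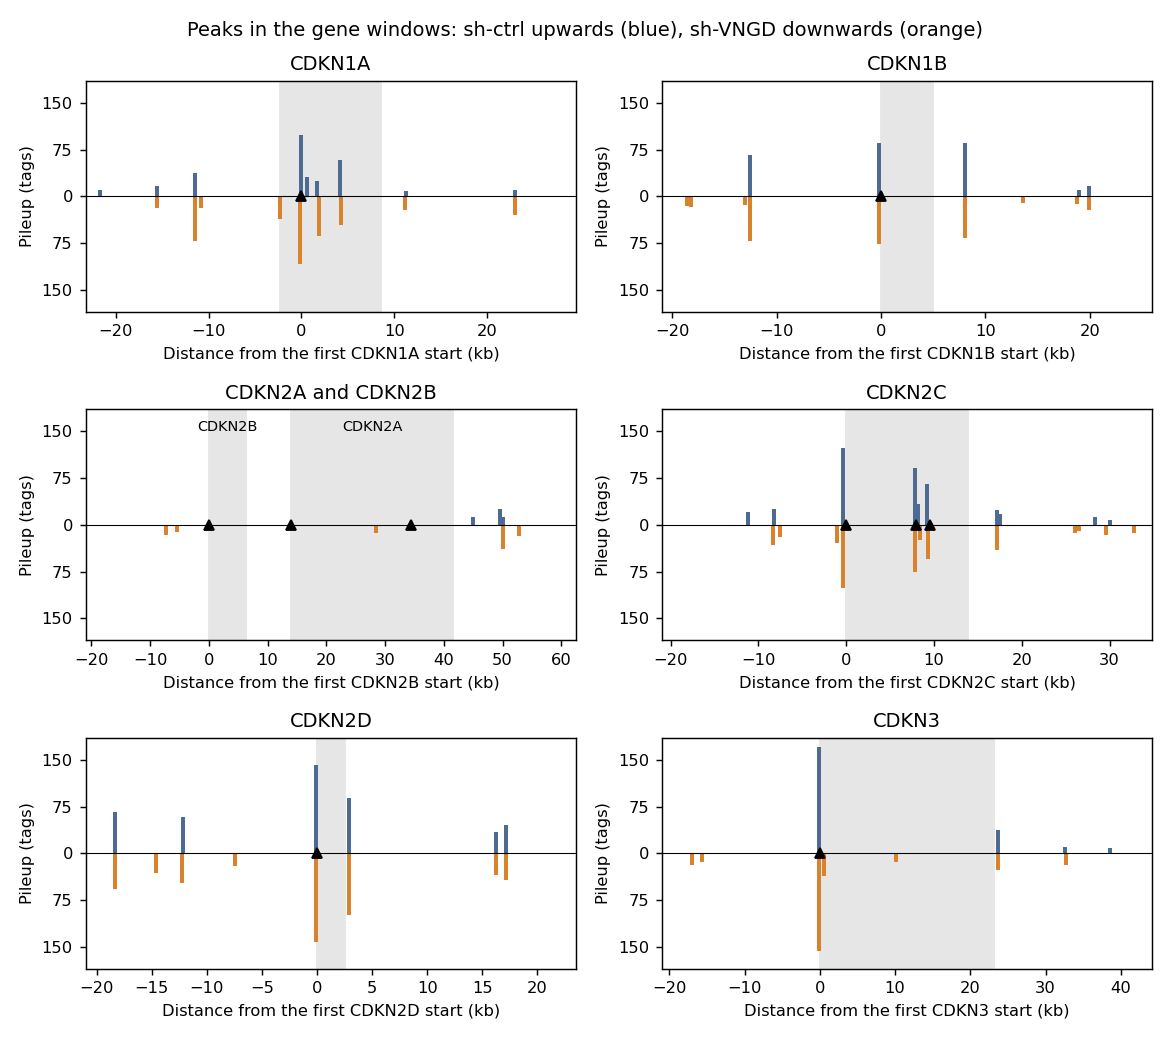
Each panel plots the pileup (tags, unscaled) of every peak in a gene window against its distance (kb) from the most upstream RefSeq start, with sh-ctrl upwards in blue, sh-VNGD downwards in orange, gene bounds in grey and starts as triangles. The CDKN2A and CDKN2B starts have no bar, whereas every other start has a bar in both directions.

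At the 7 open starts, heights ran in nearly the same order in both libraries. A pileup is the number of tags covering the summit, each spanning 200 bp, so heights compare the same length at every gene. CDKN3 had 170 sh-ctrl tags and 157 sh-VNGD tags, higher than 96.5% and 95.6% of the 10049 regions that hold a protein-coding start and have both peaks. CDKN2D had 141 and 142 tags. The outer CDKN2C start had 124 and 101, CDKN1A 99 and 108, the middle CDKN2C start 92 and 76, CDKN1B 86 and 76, and the inner CDKN2C start 65 and 54. CDKN3 and CDKN2D were thus highest in both libraries and the inner CDKN2C start lowest. CDKN1A was below the outer CDKN2C start in sh-ctrl and above it in sh-VNGD. With 1 library each there is no spread by which to separate neighbours in this order.

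**Figure D3:**
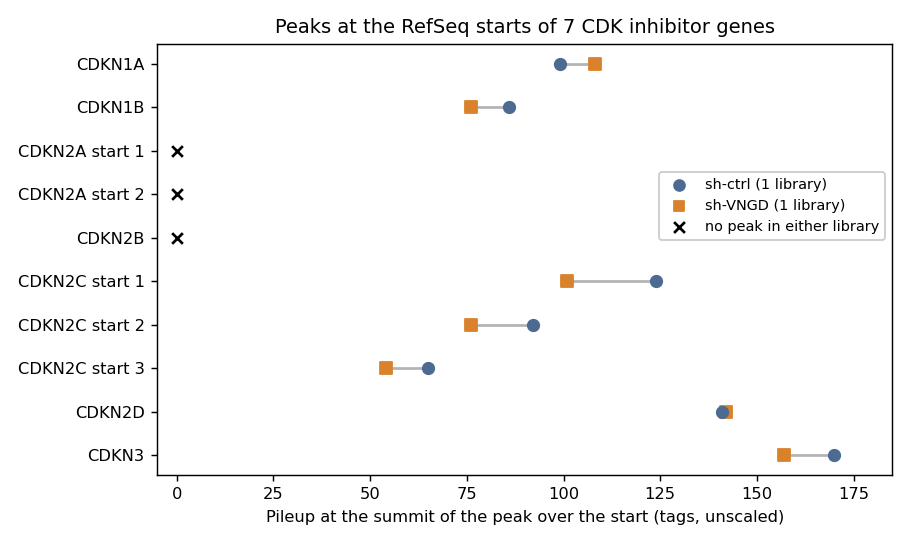
Pileup (tags, unscaled) at the peak over each of the 10 RefSeq starts, with a circle for sh-ctrl, a square for sh-VNGD and a cross, drawn at the left edge of the scale and not a measured 0, where neither library had a peak; starts are numbered in the direction of transcription. CDKN3, at 170 and 157 tags, is the highest, and the 3 starts of CDKN2A and CDKN2B have no peak.

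For the difference between the libraries, the log2 ratio of sh-VNGD over sh-ctrl pileups, each divided by kept tags, was set relative to its median over all 152097 regions with a peak in both (−0.26). On this scale equal unscaled pileups read −0.19, and so did the median of the regions holding a protein-coding start. CDKN1A stood at −0.07 (95% interval −0.47 to 0.34), CDKN2D at −0.18 (−0.53 to 0.16), CDKN3 at −0.31 (−0.63 to 0.01) and CDKN1B at −0.37 (−0.84 to 0.09). The outer CDKN2C start stood at −0.49 (−0.88 to −0.10), the middle one at −0.47 (−0.93 to −0.01) and the inner one at −0.46 (−1.01 to 0.08). All 7 thus lay below 0, as did 75.5% of all start regions, and none reached 1.5-fold, which 8.64% of start regions passed downwards and 3.20% upwards. Intervals lay wholly below 0 for 2 of the 7, both of CDKN2C, and for 17.0% of start regions, and wholly above 0 for none (1.79%). Relative to the −0.19 of start regions, the intervals of CDKN1A, CDKN1B, CDKN2D, CDKN3 and all 3 CDKN2C starts include no difference.

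CDKN2C, which encodes the INK4 protein p18, had 4 regions at its outer end and inside the gene, and all had a lower pileup in sh-VNGD. The outer region, at chromosome 1, 50959982 to 50960835, also holds the start of FAF1, on the opposite strand, so its tags cannot be assigned to either gene. The region between the middle and inner starts, at 50968891 to 50969278, had 33 sh-ctrl tags and 24 sh-VNGD tags, a relative ratio of −0.65 (−1.47 to 0.15). Its summits differed in place, at 50968970 (sh-ctrl) and 50969116 (sh-VNGD). The tags within 10 kb were read from the local background that each peak's fold enrichment implies. They are those in a window of 10 kb in all around the peak, not 10 kb to each side. They were 484 (sh-ctrl) and 360 (sh-VNGD) at the middle start, and 370 and 374 at the outer one, unscaled. Scaled to kept tags and relative to the median of that measure, the log2 ratios were −0.88 and −0.43, lower in sh-VNGD at both. With fold enrichment over that local background in place of pileup, the middle and inner starts read 0.20 and 0.22 and the outer one −0.22. The direction at the middle and inner starts therefore depends on the measure. The flanking regions with both peaks had higher unscaled pileups in sh-VNGD. The region at 50977713 to 50978471, beyond the 3′ end, had 24 sh-ctrl tags and 40 sh-VNGD tags (0.54, −0.22 to 1.34), and the region at 50952133 to 50952861, inside FAF1, had 25 and 33 (0.21, −0.59 to 1.02). Both of these intervals include 0.

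CDKN1A, which encodes p21, had the most varied window. Its only start in the promoter table lies 2251 bp inside the outer bound of the gene, on chromosome 6. The peak over it (36678401 to 36678881) differed little, with 99 and 108 tags. Any start at the outer bound itself is missing from that table and was not counted among the starts. At the outer bound 36 tags at 36676335 to 36676603 formed a peak of sh-VNGD alone, on a local background of 12.1 tags. Just downstream of the start, 31 tags at 36679122 to 36679424 formed a peak of sh-ctrl alone, on a background of 10.9 tags. At the start itself the background was 10.9 tags (sh-ctrl) and 14.2 (sh-VNGD). Scaled to kept tags this was a log2 ratio of −0.06, relative to the median of the background ratio and not of the pileup ratio. The part of the background in these calls was not tested.

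The other inner regions of CDKN1A with both peaks differed in opposite directions. At 36680265 to 36680730 the pileup was 24 tags (sh-ctrl) and 64 (sh-VNGD), a relative ratio of 1.22 (0.53 to 1.96), and 1.08 by fold enrichment. The summits lay at 36680451 (sh-ctrl) and 36680614 (sh-VNGD), so these pileups were not read at the same place. The sh-ctrl peak had a −log10 q of 2.09. At 36682503 to 36683122 the pileup was 59 and 45 tags, or −0.58 (−1.18 to 0.0). The log2 ratios of tags in the 10 kb window around these peaks, relative to the median of that measure, stood at −0.038 and −0.21.

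Upstream of CDKN1A, with its sh-ctrl summit at −11481 bp from the start, the region at 36667070 to 36667488 had 38 sh-ctrl tags and 71 sh-VNGD tags, or 0.71 (0.12 to 1.32). By fold enrichment it stood at 0.40. Past the 3′ end, the region at 36689658 to 36690067 had 9 and 21 tags (1.03, −0.16 to 2.34), and the one at 36701570 to 36701865, inside RAB44, had 11 and 30 tags (1.25, 0.22 to 2.40). In the region from 36689658 the summits also differed in place, at 36690026 (sh-ctrl) and 36689856 (sh-VNGD). The most distant upstream region with both peaks, from 36663023, had 17 and 19 tags (−0.03). Of the 7 CDKN1A regions with both peaks, 4 were at least 1.5-fold higher in sh-VNGD, and 3 of these had intervals wholly above 0. On this scale no other member had such a region, so 4 of 28 member regions with both peaks passed that fold upwards, against 11.4% of all regions, and 3 of 28 had intervals above 0, against 2.82%. Downwards, 2 of the 28 passed the fold, against 10.4% of all regions: the CDKN2C region between the middle and inner starts and one beyond the 3′ end of CDKN3. Intervals wholly below 0 were found for 3 of 28, against 7.41%. Median pileups of the 28 were 42 (sh-ctrl) and 46.5 (sh-VNGD) tags, against 18 and 22 over all regions, and the interval shares change with pileup. Among regions of mean pileup 50 or more, 21.3% had intervals wholly below 0 and 1.59% wholly above. By fold enrichment 2 of the 4 high CDKN1A regions stood at 0.40 and 0.12, short of 1.5-fold, and the CDKN2C region from 50977713 passed it at 0.61. Relative to gene-end regions, that CDKN2C region (0.73) and the CDKN3 region from 54429404 (0.70) passed it as well. The CDKN2A region from 21959127 passed it by the nearest summits, at 1.51, and relative to regions of mean pileup 50 or more, at 0.60. The regions of 1 gene share a locus and a library and are not independent.

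CDKN1B, which encodes p27, had 1 region at its own ends, at chromosome 12, 12716895 to 12717591. This region also overlaps GPR19, at an end of that gene, so its tags cannot be assigned to CDKN1B alone. CDKN1B had no inner region. The pileups of the start region, 86 and 76 tags, read 0.01 by fold enrichment. Inside GPR19, at 12704619 to 12704977, there were 67 sh-ctrl tags and 71 sh-VNGD tags (−0.11, −0.61 to 0.39). At the start of APOLD1, at 12724855 to 12726120, there were 85 and 66 tags (−0.56, −1.04 to −0.08), but 0.19 by fold enrichment. The other regions of this window held at most 21 tags, and 4 of them were peaks of sh-VNGD alone.

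CDKN2D, which encodes the INK4 protein p19, lies in a gene-dense part of chromosome 19. Its start region, at 10568403 to 10569473, had 141 and 142 tags. The region at its other end, 10565783 to 10566261, had 89 sh-ctrl tags and 99 sh-VNGD tags (−0.04, −0.47 to 0.39) and holds the start of KRI1. Flanking regions were high as well, with 46 and 42 tags from 10551672 inside ATG4D, 34 in each library from 10552597, 59 and 48 from 10580850 inside AP1M2, and 66 and 57 at the AP1M2 start from 10586954. Their relative ratios ran from −0.49 to −0.19, all with intervals including 0. Inside AP1M2, 31 tags from 10583482 formed a peak of sh-VNGD alone.

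CDKN3 had the highest start of the 7 genes, at chromosome 14, 54396607 to 54397659. Beyond its 3′ end, at 54420364 to 54421074, there were 37 sh-ctrl tags and 27 sh-VNGD tags (−0.65, −1.42 to 0.11), and −0.22 by fold enrichment. Inside the gene, 14 tags from 54407056 formed a peak of sh-VNGD alone. The flanking regions held at most 18 tags.

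Outer, inner and flanking regions were then compared across the 7 genes. Of 7 outer regions, 6 had a peak in both libraries, with a median relative ratio of −0.34, beside −0.18 over 14953 outer regions of all protein-coding genes. Of 9 inner regions, 6 had both peaks, with a median of −0.46 beside 0.0 over 65146. Of 40 flanking regions, 16 had both peaks, with a median of 0.09 beside 0.01 over 20940. Member regions were classed by the bounds of the member alone, and all regions by the bounds of every protein-coding gene. Member flanking regions inside or at the end of another gene, such as GPR19 or AP1M2, would be inner or outer among all regions. The flanking values and shares therefore compare unlike sets. At least 1.5-fold lower were 1 outer region (10.2% of all outer regions with both peaks), 1 inner region (12.1%) and no flanking region (10.6%). At least 1.5-fold higher were no outer region (4.37%), 1 inner region (11.0%) and 3 flanking regions (11.4%). The inner regions with both peaks came from CDKN1A and CDKN2C only, and 3 of the 6 hold a start. Outer and inner medians were thus below the flanking median among the members by pileup, a difference that was not tested. By fold enrichment the order was another, with medians of −0.077 (outer), 0.11 (inner) and 0.099 (flanking). The median sh-ctrl pileup also differed, at 106.5 tags in outer, 62 in inner and 25.5 in flanking regions, and its part in the difference was not tested. Regions of mean pileup 50 or more had a median of −0.21 genome-wide.

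Peaks of 1 library only were mainly flanking and low. Of the 56 regions, 7 were peaks of sh-ctrl alone, beside 16.5% of all regions, and 21 of sh-VNGD alone, beside 41.2%. Outer regions held 0 and 1 of them (8.64% and 15.7% of all outer regions), inner regions 1 and 2 (17.8% and 41.4%), and flanking regions 6 and 18 (17.1% and 40.3%). The flanking shares carry the difference in class rule given above. The sh-ctrl-only peaks had a median of 12 tags (8 to 31) and the sh-VNGD-only peaks 16 tags (9 to 36). With the sh-VNGD list cut to the number of peaks of sh-ctrl, the counts were 10 and 13. The shares of all regions given here are for the uncut lists, so these counts cannot be set against them.

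**Figure D4:**
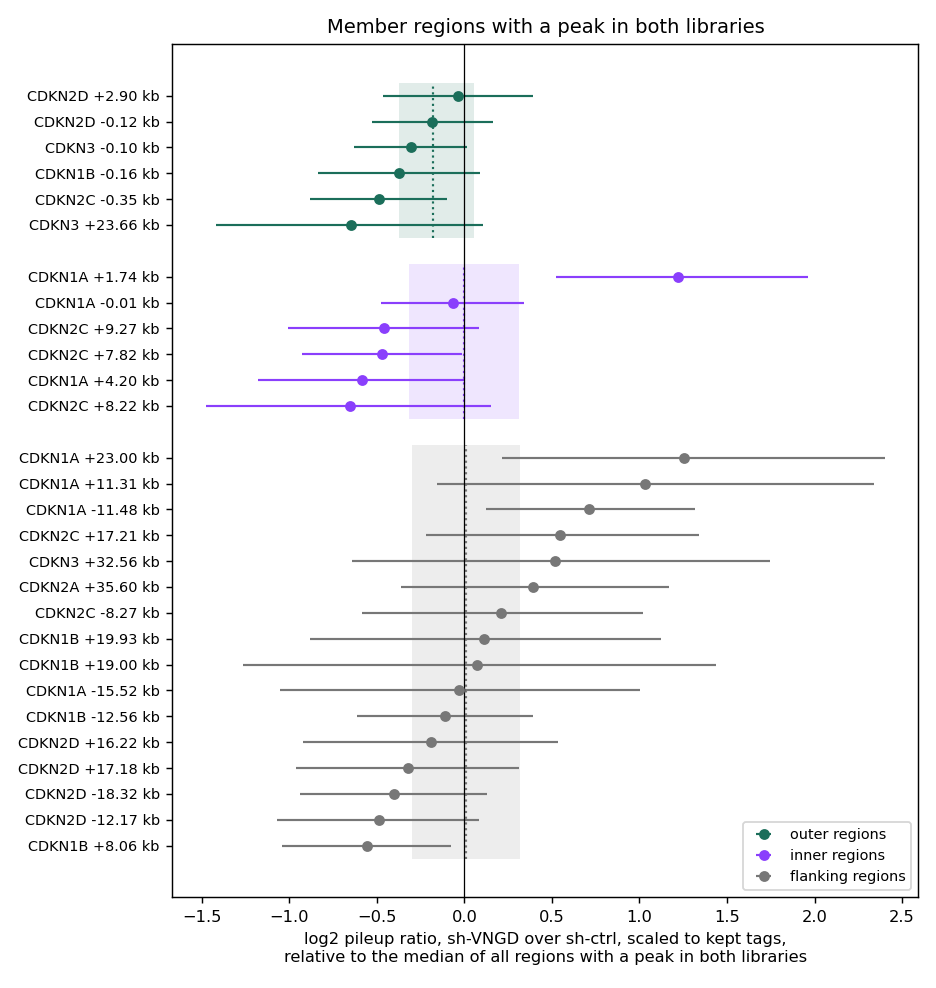
Relative log2 pileup ratio (sh-VNGD over sh-ctrl, scaled to kept tags) of the 28 member regions with a peak in both libraries, labelled by the distance of the sh-ctrl summit from the most upstream start. Bars are 95% counting intervals, shaded bands the quartiles and dotted lines the median over all regions of that class. Classes over all regions use the bounds of every protein-coding gene, those of members the member's own bounds. The 4 values of at least 1.5-fold on the positive side are all CDKN1A regions, from 0.71 to 1.25.

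The wider pathway was read from a list of 51 genes for cyclins, kinases, RB and E2F proteins, ubiquitin ligase parts and known regulators of the inhibitor genes. Of these, 47 had a ratio at a gene end, here relative to the median of 13914 gene ends (−0.45 before centring). The end with the higher summed scaled pileup was used for each gene. It can be the 5′ or the 3′ end, so a ratio here need not describe a promoter. Their median was 0.01. One gene was at least 1.5-fold lower, as were 3.36% of all genes, and 3 were at least 1.5-fold higher, as were 7.26%. Intervals lay wholly below that median for 3 genes (4.44% of all) and wholly above for 3 (4.24%). The lowest were MYC, with 140 sh-ctrl tags and 92 sh-VNGD tags (−0.61, −1.0 to −0.22), the D cyclin CCND1, with 174 and 122 (−0.51, −0.86 to −0.17), the mitotic kinase CDK1, with 130 and 98 (−0.41, −0.80 to −0.02), and the RB relative RBL1, with 65 and 49 (−0.41, −0.97 to 0.15). The highest were HRAS, with 8 and 26 tags (1.70), E2F2, with 12 and 28 (1.22), E2F5, with 47 and 75 (0.67, 0.13 to 1.23), and ETS1, with 22 and 31 (0.49). Apart from E2F5 these high ratios started from 22 tags or fewer.

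Of the kinases bound by the inhibitors, CDK1 is given among the lowest. CDK4, a target of the INK4 proteins, had 151 sh-ctrl tags and 160 sh-VNGD tags (0.08, −0.25 to 0.41). CDK2 had 205 and 211 (0.04, −0.24 to 0.33). The intervals of CDK1, CDK2 and CDK4 overlap, so a difference between these kinases is not shown. RB1, the substrate of these kinases, had 50 and 46 (−0.12, −0.73 to 0.49). MDM2, a ubiquitin ligase, had 78 and 101 (0.37, −0.07 to 0.82). At the ends of CDK6 and RING1, peaks of 19 and 13 tags were found in sh-VNGD alone, a pattern of 4.93% of all genes, and no listed gene had the reverse pattern (2.94%). The D cyclin CCND2 and CDKN1C, the remaining CIP/KIP gene, had no gene-end peak in either library, as did 22.3% of all genes.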

How the data were processed

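Peaks were called with MACS 2.1.0.20150731 on each library alone without a control, per the file headers, which give a shift of −100 and an extension of 200 bp, 1 tag per position, a q cutoff of 0.05 and a 10 kb background window. Builds hg38 and GRCh38.p13 are listed with deepTools, MACS2 2.1.2 and Bowtie2 2.2.5, per the submitters' processing notes. Alignment filters are not given in the sources used here. Tag totals were 51628228 (sh-ctrl) and 48164322 (sh-VNGD), of which 56% and 35% were repeats of a position. The deposited pileup is a signal, the tags over each summit, unscaled. The fold enrichment and the −log10 p and q are the authors' values for each peak, as deposited. The deposited shorter lists repeat the longer ones line by line.

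Positions are on GRCh38, and gene bounds and starts come from RefSeq GRCh38.p14, matched by symbol for all 7 members. Exons were not used here. Outer regions have a summit within 1000 bp of a gene bound, inner ones a summit farther inside, and flanking ones lie up to 20 kb outside. For member regions these were the bounds of the member, and for all regions those of every protein-coding gene. A region in reach of 2 members was counted once, for the gene it is outer or inner to, otherwise for the nearer. Each region took the highest pileup of each library, so the summits of the 2 libraries can differ in place. Ratios carry exact Clopper-Pearson 95% intervals, and the code for both was tested on simulated data. A region counted as past the fold at 1.5-fold. Tags within 10 kb are the local background, (pileup + 1) divided by fold enrichment, minus 1, scaled to the window, and cannot read below the genome average. Log2 ratios of fold enrichment and of tags within 10 kb were each set relative to their own median over regions with both peaks. These medians were −0.087 and −1.2e-06. The text names all outer and inner member regions, flanking regions of at least 30 tags, the 4 highest and 4 lowest pathway genes, and pathway genes with a peak in 1 library only; CDK4, CDK2, RB1, MDM2, CCND2, CDKN1C and lower flanking regions were added after their values were seen. The members and lists were chosen with earlier results of these data known. Python 3.11.15, pandas 2.3.3 and scipy 1.17.1 were used.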

Additional observations from a re-analysis of the deposited data

How the results depend on the processing

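No paired analysis was possible because each group held 1 library. The median relative ratio of the 28 member regions was −0.15, and its sign rested on the centring: it was 0.036 relative to gene-end regions, 0.060 relative to regions of mean pileup 50 or more, 0.053 by fold enrichment and −0.31 where both peaks had a −log10 q of at least 10. The 2 regions at least 1.5-fold lower became 0 under the first 3 of these and 1 under the last, and 7 by tags within 10 kb, a measure chosen after seeing the data. The 4 regions at least 1.5-fold higher became 7 relative to regions of mean pileup 50 or more and 1 at a −log10 q of at least 10. The shares of all regions past the fold, given with the ratios, hold for the main scale only. These counts therefore show how the calls move with the setting and are not a result about the members. The CDKN2C region from 50968891 turned to 0.024 by fold enrichment, and the CDKN1A region from 36680265 to −0.038 by tags within 10 kb.

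Flanks of 10 kb gave 15 flanking regions, 2 regions of sh-ctrl alone and 10 of sh-VNGD alone, and flanks of 50 kb gave 101, 20 and 47, with 50 in both, since the window sets these counts. Equal numbers of peaks left 13 of sh-VNGD alone, a count without a share of all regions at that cut. The 3 starts with a peak in neither library were also 3 with equal numbers of peaks and at a −log10 q of at least 5 or 10. Of the pathway genes, 0 were at least 1.5-fold lower by fold enrichment, and 0 lower and 1 higher among regions of at least 30 tags. The shares of all genes given with the pathway do not apply at these settings. Counts of 8 to 30 tags leave intervals too wide to place most flanking regions.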

Other observations

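Of the long non-coding RNA genes in the same windows, those with a start in the promoter table are given here; PANDAR and CDKN2A-AS1 have none there. The start of DINOL, on the minus strand 155 bp from the CDKN1A start, lay in the same region as it, with 99 sh-ctrl tags and 108 sh-VNGD tags. The start of CDKN2B-AS1, 533 bp from the ARF start of CDKN2A on the opposite strand, had no peak in either library, nor had LOC124902130, 1296 bp from it. LOC105369663 shared the region of the APOLD1 start beside CDKN1B, with 85 and 66 tags.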
